A study of Mus musculus with 14 samples.

Results

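Parotid gland (PG) tissue was compared with sublingual gland (SLG) tissue in bulk RNA-seq of whole glands. The comparison used 4 of the 14 libraries of the series, 2 of PG and 2 of SLG, and all genes of the tissue table by their symbol. The mice were untreated, wild-type, female and of the C57BL/6 strain, and the column names of the table mark them as 6 weeks old. Both glands carried the same genotype and treatment. The labels call the source epithelial cells, whereas the libraries were made from gland tissue and held transcripts of stroma, vessels and nerve. Of 45777 genes in the table, 16293 had a count in each of the 6 tissue libraries and were tested, the 2 libraries of submandibular gland (SMG) tissue sharing the estimate of the spread. Nothing says which libraries came from separate mice, so p-values measure only the spread between these libraries, which may be technical.

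Saliva is made in acini, which secrete proteins and fluid, and is modified in ducts. Serous acini, which fill the PG, store amylase and other enzymes in granules and release a watery saliva. Mucous acini, which fill the SLG, pack heavily O-glycosylated mucins, and their cells need a large endoplasmic reticulum and Golgi apparatus to fold and glycosylate this cargo. The comparison asked which genes set these glands apart.

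Library totals were 71367044 and 68876821 counts in PG, against 61586795 and 71294185 counts in SLG. The 10 most abundant genes held 74.5% and 74.7% of the counts in PG, against 49.6% and 47.0% in SLG. This leaves fewer reads for all other genes in PG, so levels are given relative to library size (CPM) after TMM scaling, which sets the bulk of genes equal between libraries. The TMM factors were 0.849 and 0.836 in PG, against 1.49 and 1.70 in SLG. Scaled by the totals of tested genes in place of TMM, the log2 fold changes shifted by a median of -0.92. Log2 fold changes are those of PG over SLG, and a gene was called where its size exceeded 1 and the edgeR adjusted p was below 0.05. By this rule 2555 genes were higher in PG (15.7% of those tested) and 2053 were lower (12.6%). Without a test, both PG libraries lay above both SLG libraries in 40% of the genes and below them in 40.3%. With the totals, 829 were higher (5.09%) and 7292 lower (44.8%).

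SLG replicate 1 held parotid transcripts that SLG replicate 2 nearly lacked. Amy1, salivary amylase, had 6692624 and 6568789 counts in PG, against 562296 and 622 counts in SLG. Of 46 genes that averaged at least 10 CPM in PG and lay under 1% of that level in SLG replicate 2, 33 reached 1% or more in SLG replicate 1. In SLG replicate 1 these 33 genes, chosen by these same levels, lay between 2.68% and 8.71% of their mean in PG, with a median of 5.60%. The other 13 genes, under 1% in both SLG libraries, were pancreatic-type amylase copies and skeletal muscle genes. The libraries do not show whether the transcripts of SLG replicate 1 came from PG tissue, and this was not tested. Where leaving that library out moved the tissue fold of a gene described here by over 1.5 times, the fold without it is given too.

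**Figure D1:**
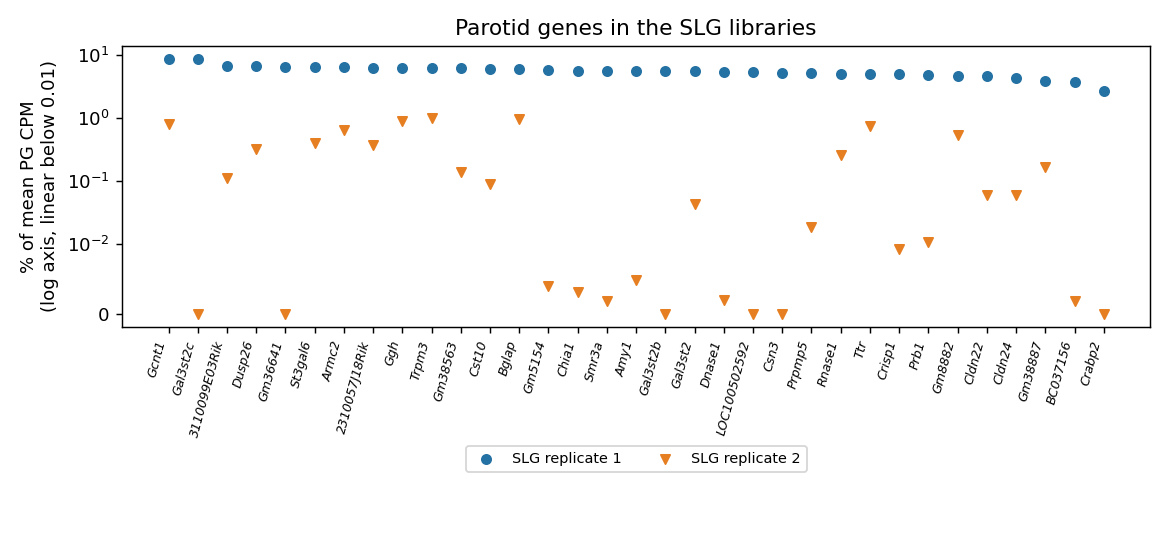
Level of 33 parotid genes in SLG replicate 1 (circles) and SLG replicate 2 (triangles), as a percentage of the mean CPM in PG on an axis that is logarithmic above 0.01. The genes were chosen by these levels. SLG replicate 1 lies between 2.68% and 8.71% for each gene, and SLG replicate 2 lies under 1%.

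The secretory products of the serous acinus took most of the PG libraries. Bpifa2, the parotid secretory protein of the BPI fold family (chr2:154008276-154016073), alone held 39.3% and 39.1% of the counts in PG, against 4.01% and 0.862% in SLG. It had 483803 and 489404 CPM in PG, against 28919 and 5572 CPM in SLG (log2 fold change 4.82, SE 1.05, edgeR adjusted p = 0.0297). Each PG library lay above each SLG library, and the call was lost in 6 of 21 alternatives, among them the fits that left out PG replicate 1 or PG replicate 2. Without PG replicate 1 the log2 fold change was 4.83, with edgeR adjusted p = 0.1. Without PG replicate 2 it was 4.81, with edgeR adjusted p = 0.099. The call was also lost without SMG replicate 1 or 2, which enter the filter, the scaling and the spread. Without SLG replicate 1 the log2 fold change was 6.44, with edgeR adjusted p = 2.16e-10.

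Amy1 (chr3:113555952-113577750) digests starch. It had 115469 and 119496 CPM in PG, against 6584 and 5.64 CPM in SLG. The PG libraries were alike, and the SLG libraries differed from each other 1167-fold. The gene was not called with all libraries (log2 fold change 5.16, SE 3.25, edgeR adjusted p = 0.268), while without SLG replicate 1 its log2 fold change was 14.34, with edgeR adjusted p = 1.15e-11. Smr3a, a submaxillary gland androgen regulated protein (chr5:87991555-88008534), had 161903 and 169159 CPM in PG, against 9355 and 3.13 CPM in SLG, and Dnase1, a secreted nuclease, had 30295 and 28498 CPM in PG, against 1598 and 0.562 CPM in SLG. Neither was called with all libraries, with edgeR adjusted p = 0.301 for Smr3a and 0.292 for Dnase1. Without SLG replicate 2 the log2 fold change of Amy1 was 4.15, with edgeR adjusted p = 1.20e-09, so that PG was higher than either SLG library taken alone. Without SLG replicate 1 the log2 fold change of Smr3a was 15.68, with edgeR adjusted p = 1.15e-11. That of Dnase1 was 15.66, with edgeR adjusted p = 1.56e-11. Against SLG replicate 1 alone, both were called higher as well, with log2 fold changes of 4.14 for Smr3a and 4.19 for Dnase1.

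Chia1, an acidic chitinase, Cst10, a cystatin that inhibits cysteine proteases, and the proline-rich proteins Prb1 and Prpmp5 were outside the fit, since each had a count of 0 in some SMG library. Chia1 had 41239 and 43347 CPM in PG, against 2392 and 1.32 CPM in SLG. Cst10 had 9222 and 9347 CPM in PG, against 557 and 8.43 CPM in SLG. With the filter applied to PG and SLG only and without SLG replicate 1, a setting chosen after the data were seen, the log2 fold change of Chia1 was 14.93, with edgeR adjusted p = 8.92e-09. That of Cst10 was 10.07, with edgeR adjusted p = 9.58e-09.

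Of the serous products, Car6, Pip and Lpo were also found in both SLG libraries. Car6, the secreted carbonic anhydrase, had 20801 and 19879 CPM in PG, against 6169.9 and 3921 CPM in SLG (log2 fold change 2.01, SE 0.19, edgeR adjusted p = 1.77e-06). Pip, the prolactin-induced protein, had 14353 and 16108 CPM in PG, against 4906 and 2426 CPM in SLG (log2 fold change 2.05, SE 0.29, edgeR adjusted p = 4.40e-04). Lpo, lactoperoxidase, had 1806 and 1868 CPM in PG, against 208 and 108 CPM in SLG (log2 fold change 3.54, SE 0.33, edgeR adjusted p = 3.17e-04). In these 3 genes both SLG libraries held well over 1% of the PG level, and the glands did not overlap. Without SLG replicate 1 the log2 fold change of Pip was 2.64, with edgeR adjusted p = 2.04e-08. The SMG libraries also held these transcripts, Car6 at 38049 and 37608 CPM in SMG, Pip at 22975 and 22381 CPM in SMG and Lpo at 828 and 776 CPM in SMG, and from which gland those of the SLG libraries came was not tested. Of 13 serous products in the list, 8 were tested. Of these, 5 were higher in PG (beside 15.7% of all genes) and none lower (beside 12.6%). The median log2 fold change was 3.12, beside 0.02 over all genes tested. Without SLG replicate 1 all 8 were higher, and without PG replicate 2 there were 4.

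**Figure D2:**
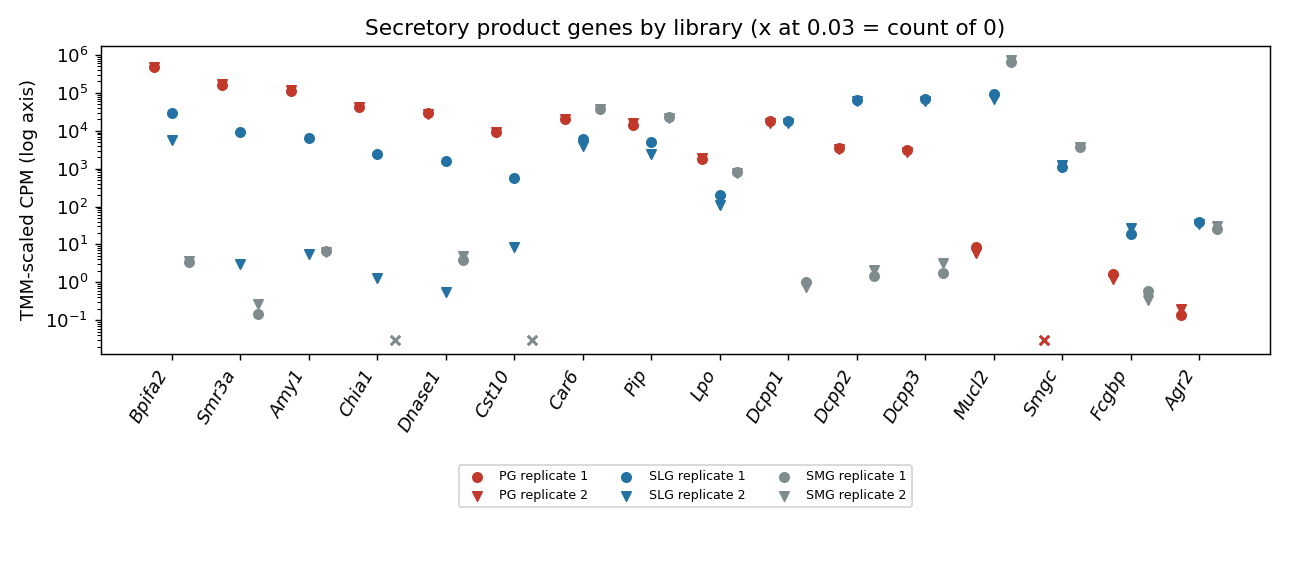
TMM-scaled CPM on a log axis of 16 secretory product genes in each library of PG (red), SLG (blue) and SMG (grey), with circles for replicate 1 and triangles for replicate 2. Crosses mark a count of 0. Smr3a, Amy1, Chia1, Dnase1 and Cst10 are high in PG and in SLG replicate 1 and low in SLG replicate 2, whereas Dcpp2 and Dcpp3 are alike in both SLG libraries.

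In the SLG the demilune cell and parotid proteins (Dcpp), which are small lectin-like secreted proteins, were among the most abundant transcripts. Dcpp3 (chr17:23917419-23919441) had 3117 and 2770.4 CPM in PG, against 69972 and 62532 CPM in SLG (log2 fold change -4.49, SE 0.26, edgeR adjusted p = 5.11e-08). Dcpp2 (chr17:23898722-23900788) had 3551 and 3339 CPM in PG, against 65574 and 61631 CPM in SLG (log2 fold change -4.21, SE 0.18, edgeR adjusted p = 1.56e-09). Their neighbour Dcpp1 (chr17:23880669-23882853) had 18453 and 16031 CPM in PG, against 18486 and 15840.5 CPM in SLG (log2 fold change 0.01, SE 0.16, edgeR adjusted p = 0.974). Dcpp1 thus overlapped between the glands while Dcpp2 and Dcpp3 did not. The copies are close relatives, and reads may have been split among them in the counting.

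The promoters of the Dcpp genes and of the leading PG products Bpifa2 and Smr3a are shown because Bpifa2 and Smr3a lead the PG libraries and the Dcpp copies differ in level between the glands to unequal extents. They span 250 bases before to 50 after the start, from RefSeq on GRCm38.p6, and capitals mark TATAA, the core of a TATA box, searched on both strands. Bpifa2 lies at chr2:154008026-154008325 on the plus strand, Smr3a at chr5:88002275-88002574 on the plus strand, Dcpp1 at chr17:23880626-23880925, Dcpp2 at chr17:23898472-23898771 and Dcpp3 at chr17:23917208-23917507, all on the plus strand. Each gene has 1 window in the table of promoters, and for Smr3a, Dcpp1 and Dcpp3 its start lies 10970, 207 and 39 bases inside the gene as RefSeq records it.
Bpifa2: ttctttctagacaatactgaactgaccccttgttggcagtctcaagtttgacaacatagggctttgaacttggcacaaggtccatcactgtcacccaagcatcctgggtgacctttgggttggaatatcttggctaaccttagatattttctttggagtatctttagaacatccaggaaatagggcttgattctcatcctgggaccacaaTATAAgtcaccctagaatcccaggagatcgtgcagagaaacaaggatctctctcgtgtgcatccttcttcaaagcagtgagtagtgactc
Smr3a: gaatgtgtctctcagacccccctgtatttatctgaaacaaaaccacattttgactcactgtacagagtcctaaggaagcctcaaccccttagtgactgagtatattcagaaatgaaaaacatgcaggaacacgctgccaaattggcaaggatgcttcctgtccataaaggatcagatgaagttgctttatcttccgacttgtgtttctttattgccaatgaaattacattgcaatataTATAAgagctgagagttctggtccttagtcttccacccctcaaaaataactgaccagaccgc
Dcpp1: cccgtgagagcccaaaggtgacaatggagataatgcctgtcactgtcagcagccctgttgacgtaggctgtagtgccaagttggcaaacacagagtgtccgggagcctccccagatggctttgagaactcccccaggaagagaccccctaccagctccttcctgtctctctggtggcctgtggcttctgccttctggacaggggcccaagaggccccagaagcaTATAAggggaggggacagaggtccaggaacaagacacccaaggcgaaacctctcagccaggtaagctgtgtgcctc
Dcpp2: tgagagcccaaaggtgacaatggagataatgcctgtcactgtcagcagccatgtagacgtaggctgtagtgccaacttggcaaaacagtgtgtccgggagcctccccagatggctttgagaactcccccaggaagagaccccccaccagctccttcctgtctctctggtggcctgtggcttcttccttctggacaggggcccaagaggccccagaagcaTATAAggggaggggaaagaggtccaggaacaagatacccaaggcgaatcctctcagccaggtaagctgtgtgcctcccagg
Dcpp3: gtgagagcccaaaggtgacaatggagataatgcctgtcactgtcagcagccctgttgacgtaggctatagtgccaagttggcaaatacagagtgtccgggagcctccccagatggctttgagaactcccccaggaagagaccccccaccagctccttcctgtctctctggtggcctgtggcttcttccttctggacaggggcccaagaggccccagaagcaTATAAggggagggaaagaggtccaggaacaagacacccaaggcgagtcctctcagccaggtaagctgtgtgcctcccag
The Dcpp1 window differed from that of Dcpp2 by 10 single-base changes, insertions or deletions and from that of Dcpp3 by 8, and Dcpp2 differed from Dcpp3 by 9. Each of the 5 windows held TATAA once. Its first base lay at -40 in Bpifa2, -12 in Smr3a, -26 in Dcpp1, -31 in Dcpp2 and -29 in Dcpp3, counted from the start. Whether any of these stretches acts as a TATA box was not tested. The letters were found in 25.5% of 27025 promoters, 1 per gene at the most upstream start in that table, and in 13.9% of the 11592 promoters of genes tested. The share was 19.1% for genes higher in PG and 13.7% for genes lower in PG. These shares describe the windows and were not tested.

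Of 14 genes listed as mucous products, 7 were tested. The list includes the Dcpp genes, which are named for demilune cells and the parotid gland rather than for mucous cells. Of the 7 genes, 5 were lower in PG, none was higher and Dcpp1 and Muc1 were not called. The 5 were Agr2, Fcgbp, Muc13, Dcpp2 and Dcpp3. Among all genes tested, 12.6% were lower and 15.7% higher. Agr2, a disulfide isomerase needed for mucin folding, had 0.138 and 0.2 CPM in PG, against 38.3 and 35.5 CPM in SLG (log2 fold change -7.76, SE 0.19, edgeR adjusted p = 8.96e-12). Fcgbp, a mucus protein that binds the Fc part of IgG, had 1.66 and 1.26 CPM in PG, against 18.6 and 27.1 CPM in SLG (log2 fold change -3.97, SE 0.22, edgeR adjusted p = 4.12e-08). A2ml1, an alpha-2-macroglobulin-like protease inhibitor, had 5 and 0 counts in PG, against 3732431 and 5945976 counts in SLG, where it held 6.06% and 8.34% of the library. It was outside the fit because of the 0 and was named after its values were seen. Smgc, a submandibular gland protein expressed in early gland development, had 0 and 0 counts in PG, against 93229 and 135788 counts in SLG. Against a floor of 3 counts in each PG library, it was at least 21850-fold higher in SLG. The median log2 fold change of the tested genes of this list, Dcpp genes included, was -3.97, and that of the membrane mucin Muc1 was -0.26. The summed level of the list was 25124 and 22143 CPM in PG, against 155183 and 141301 CPM in SLG. The Dcpp genes held most of it in both glands, so the sum mainly measured them. Muc5b, Muc5ac and the trefoil factors Tff1, Tff2 and Tff3 were at 0 in all libraries, and Muc19 was not analysed here.

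Products best known from the SMG were also abundant in SLG and low in PG. Mucl2, a mucin-like protein (chr15:103895855-103899312), had 8.57 and 6.04 CPM in PG, against 90944 and 70094 CPM in SLG (log2 fold change -13.43, SE 0.30, edgeR adjusted p = 3.31e-12), and 659693 and 741086 CPM in SMG. Scgb2b26, a secretoglobin, had 0.311 and 0.309 CPM in PG, against 2935 and 2283 CPM in SLG (log2 fold change -13.03, SE 0.25, edgeR adjusted p = 1.30e-12), and 29008 and 29662 CPM in SMG. Prol1, a proline-rich lacrimal protein, had 35.4 and 32.1 CPM in PG, against 11306 and 9381 CPM in SLG (log2 fold change -8.26, SE 0.20, edgeR adjusted p = 5.55e-12), and 120694 and 117594 CPM in SMG. Both SLG libraries were high and near each other for the 3 genes. For Mucl2 they stood at 13% and 10% of the SMG mean, for Scgb2b26 at 10% and 7.78%, and for Prol1 at 9.49% and 7.87%. Over 20 genes that averaged at least 10 CPM in SMG and lay under 1% of that level in PG, the medians were 13.01% in SLG replicate 1 and 14.2% in SLG replicate 2. These genes varied widely, with upper quartiles of 59.7% and 61.7% and ranges of 0 to 3154% and 0 to 3554%. The SLG lies against the SMG in the mouse, and whether SMG tissue was in the SLG libraries was not tested. Of 20 tested genes listed for the SMG granular duct, Mucl2 among them, 16 were lower in PG (beside 12.6% of all genes) and 1 was higher (beside 15.7%). The summed level of the list ran the other way, with 162794 and 170150 CPM in PG, against 102528 and 72873 CPM in SLG. Mucl2 made up most of it in SLG. In PG the list held 13.22% and 13.58% of the counts, where Smr3a alone held 13.15% and 13.5%.

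The kallikreins of the SMG granular duct were higher in SLG replicate 2. Klk1b26 had 3.47 and 3 CPM in PG, against 51.5 and 95.4 CPM in SLG (log2 fold change -4.50, SE 0.42, edgeR adjusted p = 0.00212). Klk1, tissue kallikrein, had 714 and 841 CPM in PG, against 1826 and 2218 CPM in SLG (log2 fold change -1.38, SE 0.15, edgeR adjusted p = 6.16e-06). The glands did not overlap for either gene. The kallikrein copies are near-identical in sequence, and counts of single copies are uncertain.

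Of 33 tested genes for folding and moving secretory cargo, 10 were lower in PG, none was higher and 23 were not called. The shares over all genes tested were 12.6% lower and 15.7% higher. Creb3l4, a membrane-bound transcription factor of the secretory pathway, had 1.6 and 1.38 CPM in PG, against 110.3 and 125 CPM in SLG (log2 fold change -6.30, SE 0.13, edgeR adjusted p = 1.94e-12). Sec23b, part of the COPII coat that carries cargo out of the endoplasmic reticulum, had 34 and 32.6 CPM in PG, against 598 and 653 CPM in SLG (log2 fold change -4.23, SE 0.09, edgeR adjusted p = 2.95e-12). Creb3l1, a relative of Creb3l4, had 137 and 131 CPM in PG, against 677 and 759 CPM in SLG (log2 fold change -2.42, SE 0.09, edgeR adjusted p = 5.64e-10). Pdia3, a disulfide isomerase for glycoproteins, and Sec24d, another coat subunit, had log2 fold changes of -1.84 and -1.90. The median log2 fold change of the list was -0.50, beside 0.02 over all genes tested.

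Of 25 tested enzymes that build O-glycans, 13 were lower in PG (52%, beside 12.6% of all genes), 5 were higher (20%, beside 15.7%) and 7 were not called, among them Galnt3, Galnt11, Galnt18 and St3gal2. The sialyltransferase St3gal1, which caps core O-glycans, had 16.1 and 17 CPM in PG, against 938 and 1141 CPM in SLG (log2 fold change -5.97, SE 0.13, edgeR adjusted p = 3.41e-12). Galnt4, Galnt7, Galnt12 and Galnt2, which start or extend O-glycans on the protein, had log2 fold changes of -4.32, -2.96, -3.35 and -2.68. B3gnt6, the core 3 synthase, had 0.0863 and 0.109 CPM in PG, against 169 and 211 CPM in SLG, and Galnt5 had 0 and 0.0728 CPM in PG, against 47.2 and 54.1 CPM in SLG. A4gnt, which adds the terminal alpha-linked N-acetylglucosamine of gland mucins, had 0 and 0 counts in PG, against 1729 and 2461 counts in SLG. In the other direction Galnt1, also an initiating enzyme, had 72.7 and 83 CPM in PG, against 9.17 and 5.11 CPM in SLG (log2 fold change 3.46, SE 0.31, edgeR adjusted p = 0.00101). Gcnt1, a core 2 branching enzyme, had 44.5 and 50.7 CPM in PG, against 4.15 and 0.381 CPM in SLG (log2 fold change 4.46, SE 1.10, edgeR adjusted p = 0.0417). St6galnac2, which adds sialic acid to the first sugar, had 28.4 and 32.8 CPM in PG, against 2.19 and 1.23 CPM in SLG (log2 fold change 4.18, SE 0.21, edgeR adjusted p = 6.26e-08). The log2 fold change of Gcnt1 without SLG replicate 1 was 6.95, with edgeR adjusted p = 7.08e-09. The call of Gcnt1 was lost without any 1 of the PG or SMG libraries, with edgeR adjusted p between 0.110 and 0.137. Gal3st2, a sulfotransferase, had 64.7 and 62.8 CPM in PG, against 3.49 and 0.0272 CPM in SLG, and was outside the fit. With the filter applied to PG and SLG only and without SLG replicate 1, its log2 fold change was 11.06, with edgeR adjusted p = 7.02e-08.

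**Figure D3:**
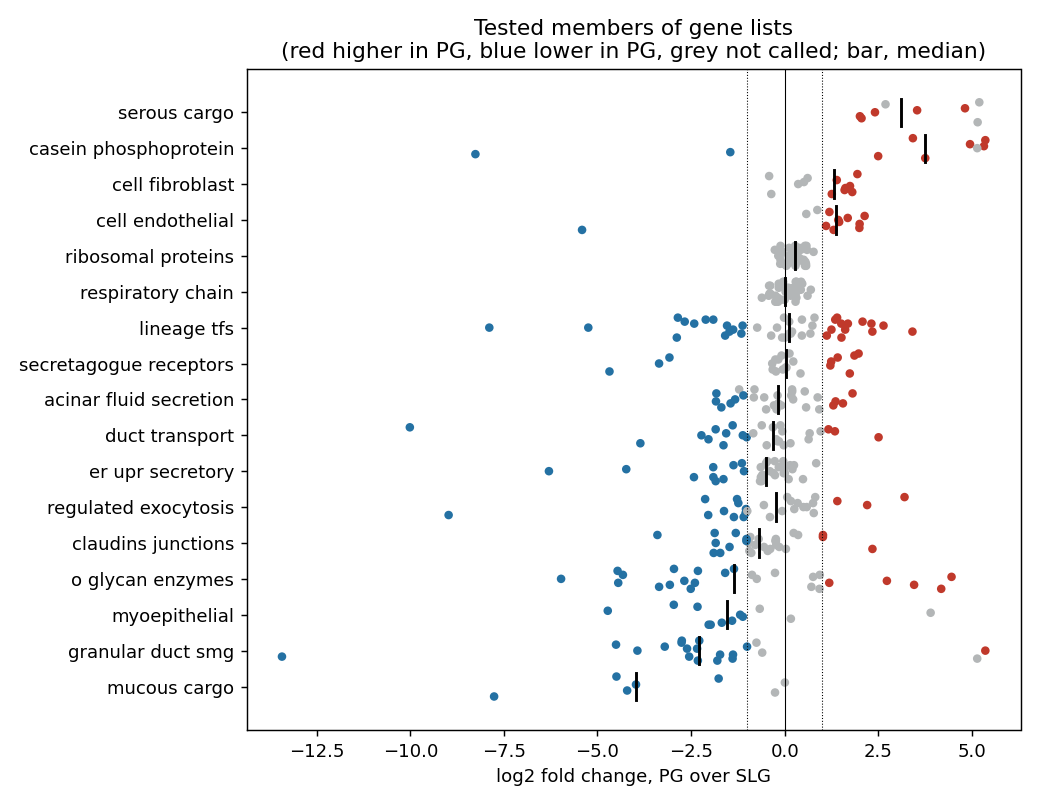
Log2 fold change of PG over SLG for each tested member of 17 gene lists, with red for genes higher in PG, blue for genes lower in PG, grey for genes not called and a bar at the median of each list. Dotted lines mark 1 and -1. Serous products lie to the right with a median of 3.12. The list of mucous products, which includes the Dcpp genes, lies to the left with a median of -3.97. No ribosomal protein gene was called.

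Of 42 tested transcription factors, 13 were higher in PG, 14 were lower and 15 were not called. Over all genes tested, 15.7% were higher and 12.6% lower. Pax9, a paired-box factor of oral and pharyngeal development (chr12:56691693-56712824), had 427 and 426 CPM in PG, against 52.8 and 27.3 CPM in SLG (log2 fold change 3.41, SE 0.39, edgeR adjusted p = 0.00419). Sox10, a factor of acinar and neural crest cells, had 118 and 110.4 CPM in PG, against 31 and 23.1 CPM in SLG (log2 fold change 2.08, SE 0.12, edgeR adjusted p = 2.68e-08). Tfap2b, Barx2 and Foxc1 had log2 fold changes of 2.64, 2.34 and 1.62. Bhlha15 (MIST1), which sets up the secretory apparatus of acinar cells, had 417 and 396 CPM in PG, against 159 and 149 CPM in SLG (log2 fold change 1.40, SE 0.08, edgeR adjusted p = 1.54e-08). Each of these 6 genes was higher in both PG libraries. The log2 fold change of Barx2 without SLG replicate 1 was 3.19, with edgeR adjusted p = 4.83e-09. The call of Barx2 was lost without any 1 of the PG or SMG libraries, with edgeR adjusted p between 0.0982 and 0.124. With scaling by totals of tested genes, 4 factors were higher and 17 lower, and Barx2, Bhlha15 and Foxc1 were no longer called.

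Spdef, which drives goblet and mucous cell maturation, had 32.1 and 32.7 CPM in PG, against 239.9 and 238 CPM in SLG (log2 fold change -2.88, SE 0.07, edgeR adjusted p = 1.28e-11). Esrrg, an orphan nuclear receptor, had 0.88 and 1.16 CPM in PG, against 38.3 and 39.1 CPM in SLG (log2 fold change -5.24, SE 0.12, edgeR adjusted p = 4.56e-12). Foxa1, a pioneer factor of endodermal glands, had 0 and 0.582 CPM in PG, against 124 and 131 CPM in SLG. Nkx2-3, a homeobox factor known for gut and salivary development, had 0 and 0 counts in PG, against 3620 and 5065 counts in SLG. Sox2, a progenitor factor of the study's SLG markers, had 0 and 0 counts in PG, against 3415 and 4426 counts in SLG. With 0 counts in PG, the SLG mean was at least 830.7-fold higher for Nkx2-3 and at least 753.6-fold higher for Sox2. Sox9, Klf5, Hey1 and Tfcp2l1 were lower in PG with log2 fold changes of -1.37, -2.67, -2.85 and -2.11.

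**Figure D4:**
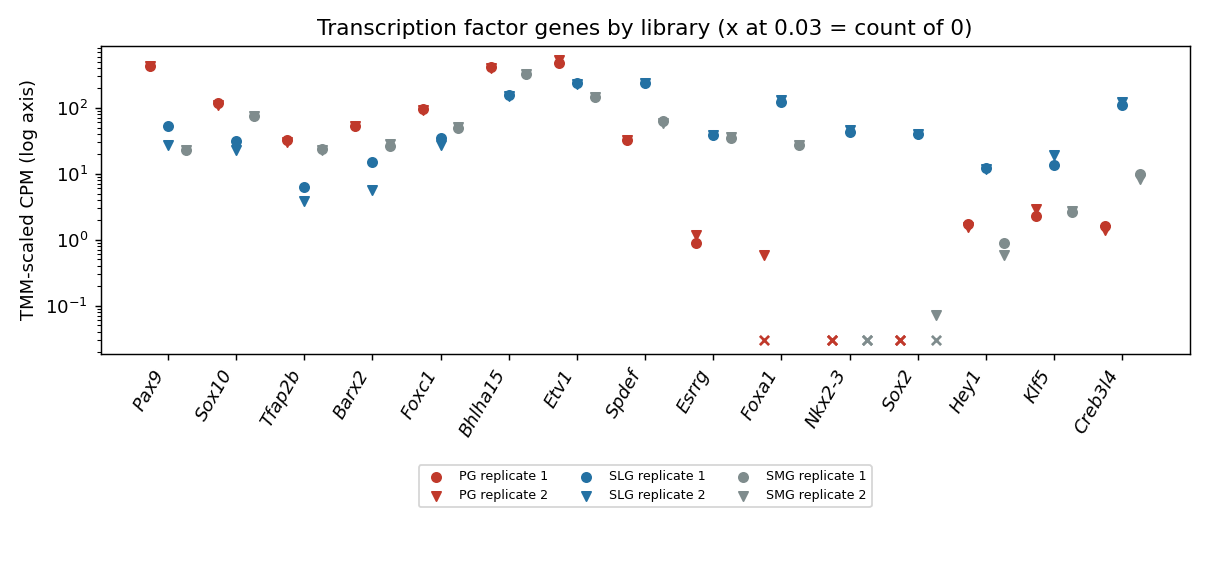
TMM-scaled CPM on a log axis of 15 transcription factor genes in each library of PG (red), SLG (blue) and SMG (grey), with circles for replicate 1 and triangles for replicate 2. Crosses mark a count of 0. Nkx2-3 and Sox2 have 0 counts in both PG libraries, and Pax9 is highest in PG.

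Of 21 tested receptors for nerve transmitters, nucleotides and hormones, 6 were higher in PG (28.6%, beside 15.7% of all genes), 3 were lower (14.3%, beside 12.6%) and 12 were not called. Those higher were Adrb1, Ghr, Esr1, P2ry2, Npy1r and Ptger3. Of 19 alternatives, Esr1 kept its call in 4, P2ry2 in 12, Ptger3 in 13 and Npy1r in 15. Of 21 alternatives, Ghr kept its call in 16 and Adrb1 in 19. Adrb1, the beta-adrenergic receptor through which noradrenaline triggers protein release, had 26.7 and 27.5 CPM in PG, against 7.37 and 6.44 CPM in SLG (log2 fold change 1.98, SE 0.09, edgeR adjusted p = 3.68e-09). Vipr1, a receptor for vasoactive intestinal peptide, had 6.16 and 5.88 CPM in PG, against 49.1 and 52.5 CPM in SLG (log2 fold change -3.08, SE 0.10, edgeR adjusted p = 1.17e-10). Chrm1, a muscarinic receptor, had 0.983 and 1.4 CPM in PG, against 10.4 and 13.9 CPM in SLG (log2 fold change -3.35, SE 0.21, edgeR adjusted p = 4.54e-08). Ramp1, a partner of the CGRP receptor, had 0.914 and 2.64 CPM in PG, against 43.5 and 46.9 CPM in SLG (log2 fold change -4.68, SE 0.44, edgeR adjusted p = 0.00109). Chrm3, the other muscarinic receptor of acini, had 19.1 and 18 CPM in PG, against 20.3 and 23.2 CPM in SLG and was not called (log2 fold change -0.23, SE 0.10, edgeR adjusted p = 0.0549). With totals of tested genes 1 was higher and 8 were lower, Chrm3 among them at a log2 fold change of -1.16.

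Of 28 tested genes of the fluid secretion machinery, 4 were higher in PG (14.3%, beside 15.7% of all genes), 6 were lower (21.4%, beside 12.6%) and 18 were not called. Slc12a2, the chloride loader NKCC1, had 679 and 714 CPM in PG, against 621 and 569 CPM in SLG (log2 fold change 0.23, SE 0.10, edgeR adjusted p = 0.0581). Aqp5, the apical water channel, had 305 and 331 CPM in PG, against 441 and 488 CPM in SLG (log2 fold change -0.55, SE 0.09, edgeR adjusted p = 1.75e-04), under the fold threshold. Kcnn4, a calcium-gated potassium channel, had 409 and 431 CPM in PG, against 172 and 169 CPM in SLG (log2 fold change 1.30, SE 0.08, edgeR adjusted p = 2.19e-08). The carbonic anhydrases Car2 and Car12 went opposite ways, with log2 fold changes of 1.81 and -1.69. With totals of tested genes none was higher and 16 were lower. In that scaling Aqp5 was lower (log2 fold change -1.47) and Car2 and Kcnn4 were not called. Kcne1, a subunit of voltage-gated potassium channels, had 0.138 and 0.182 CPM in PG, against 157 and 176 CPM in SLG (log2 fold change -10.01, SE 0.18, edgeR adjusted p = 1.11e-12), and Syt7, a calcium sensor of exocytosis, had 0.276 and 0.291 CPM in PG, against 134 and 153 CPM in SLG (log2 fold change -8.98, SE 0.15, edgeR adjusted p = 1.11e-12).

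The genes by which the study marks the glands were read in each library. Calml3, a calmodulin-like protein, had 27.1 and 25 CPM in PG, against 2.65 and 0.907 CPM in SLG (log2 fold change 3.91, SE 0.52, edgeR adjusted p = 0.00524). Serpine2, a protease inhibitor, had 11.4 and 10.4 CPM in PG, against 1.98 and 2 CPM in SLG (log2 fold change 2.46, SE 0.16, edgeR adjusted p = 4.39e-08). Fam20c, the kinase of secreted phosphoproteins, had 13.4 and 13.4 CPM in PG, against 1.97 and 0.59 CPM in SLG (log2 fold change 3.43, SE 0.62, edgeR adjusted p = 0.0117). The log2 fold change of Calml3 without SLG replicate 1 was 4.83, with edgeR adjusted p = 1.05e-08. That of Fam20c was 4.49, with edgeR adjusted p = 1.00e-06. Wnt5b, a Wnt ligand, had 2.35 and 1.42 CPM in PG, against 4.58 and 5.52 CPM in SLG (log2 fold change -1.42, SE 0.30, edgeR adjusted p = 0.00164). The semaphorin Sema3b, an SMG marker, had 2.47 and 1.76 CPM in PG, against 1.72 and 2.6 CPM in SLG and was not called (log2 fold change -0.04, SE 0.26, edgeR adjusted p = 0.916). Of 9 tested markers 3 were higher in PG, 5 were lower and 1 was not called. Those lower were the SLG markers Wnt5b and Dcpp3 and the SMG markers Klk1, Klk1b11 and Itga8. The study named these genes from its organoid data beside a tissue database, and checked some of them by qRT-PCR in organoids. Since a tissue database entered that choice, their directions in tissue are no independent evidence.

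Amy2a5 is a copy of the pancreatic-type amylase Amy2, which the study uses as a PG marker. It had 1096 and 1679 counts in PG, against 0 and 0 counts in SLG. Amy2a1, Amy2a2, Amy2a3 and Amy2a4 followed the same pattern, and these copies are near-identical to each other and resemble Amy1. With at least 10 counts in both libraries of one gland and 0 in both of the other, 45 genes were found in PG alone and 321 in SLG alone. At 100 counts these were 6 and 75. These counts depend on the parotid transcripts in SLG replicate 1 and on depth, since the effective library sizes after TMM were 57960200 and 54970700 counts in PG, against 85403500 and 110235000 counts in SLG. Without SLG replicate 1, where 1 library then stands for SLG, 149 genes were found in PG alone and 482 in SLG alone, and at 100 counts 21 and 94. Without SLG replicate 2 there were 108 and 402, and at 100 counts 6 and 77. Both settings were chosen after the data were seen. Lman1l, a lectin-like cargo receptor, had 0 and 0 counts in PG, against 47648 and 69302 counts in SLG, and Serpinb11, a serpin, had 0 and 0 counts in PG, against 24497 and 29214 counts in SLG.

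Among the largest differences toward PG were Odam, an odontogenic protein, with 55.1 and 48.5 CPM in PG, against 1.83 and 0.826 CPM in SLG (log2 fold change 5.32, SE 0.34, edgeR adjusted p = 9.62e-05), and Fam20a, the partner of Fam20c, with 25.6 and 26.7 CPM in PG, against 1.45 and 0.318 CPM in SLG (log2 fold change 4.95, SE 0.66, edgeR adjusted p = 0.00654). The log2 fold change of Odam without SLG replicate 1 was 5.96, with edgeR adjusted p = 2.99e-09. That of Fam20a was 6.35, with edgeR adjusted p = 4.71e-09. In 11 of the 12 largest, SLG replicate 1 was above SLG replicate 2. Smr2 was the exception, and its PG libraries also differed, with 47.3 and 13.6 CPM in PG, against 0.703 and 0.771 CPM in SLG. Its call was lost without either SLG library or either SMG library, with edgeR adjusted p between 0.0557 and 0.0974.

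Markers of other cells moved with the glands. Across all genes tested, 15.7% were higher in PG and 12.6% were lower. Myoepithelial cells squeeze the acini, and 9 of 12 tested markers were lower in PG and none higher, for example Cnn1 with 5.24 and 6.33 CPM in PG, against 43.1 and 46.9 CPM in SLG (log2 fold change -2.96, SE 0.10, edgeR adjusted p = 2.45e-10) and Acta2 with 37.7 and 34.5 CPM in PG, against 138 and 157 CPM in SLG (log2 fold change -2.03, SE 0.09, edgeR adjusted p = 1.26e-09). The summed level of that list was 172.4 and 178.8 CPM in PG, against 489.5 and 525.9 CPM in SLG. Of 12 fibroblast markers 7 were higher in PG, and their sum was 182.6 and 181.7 CPM in PG, against 97.2 and 82.0 CPM in SLG. The sum of 12 endothelial markers ran the other way from their count, with 90.0 and 85.2 CPM in PG, against 149.2 and 140.0 CPM in SLG. By count, 9 of them were higher in PG and 1 lower. That 1 was Vwf, von Willebrand factor, which had 2.81 and 2.4 CPM in PG, against 111 and 111 CPM in SLG (log2 fold change -5.41, SE 0.10, edgeR adjusted p = 1.11e-12), while Pecam1, also endothelial, had 13 and 13.2 CPM in PG, against 5.5 and 4.21 CPM in SLG (log2 fold change 1.43, SE 0.14, edgeR adjusted p = 2.07e-06). With totals of tested genes, 1 fibroblast marker was higher and 2 lower, and 3 endothelial markers were higher and 1 lower, so these directions rest on the scaling, whereas 10 myoepithelial markers were lower. Fewer cells of a type and less RNA per cell cannot be told apart in bulk samples. Skeletal muscle transcripts stood at 2.31 and 550.2 CPM in PG, against 1.83 and 1.51 CPM in SLG, so that PG replicate 2 stood apart. Their part in other results was not tested.

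The difference between the glands was set against that of organoids grown from them in the differentiation accelerating media (DAM), with 2 libraries each of PG and SLG organoids. Of 14459 genes tested for a difference between these differences, 3986 were called by edgeR (27.6%). Pax9 had a log2 fold change of 3.49 in tissue and 0.27 in organoids, a difference of 3.22 (edgeR adjusted p = 0.000122). Spdef had -2.81 in tissue and -0.55 in organoids, a difference of -2.26 (edgeR adjusted p = 9.58e-10). Calml3 had a log2 fold change of 3.68 in organoids, and Dcpp3 had -4.43 in tissue and -4.01 in organoids. For Calml3 the difference between tissue and organoids was 0.31 (SE 0.43, edgeR adjusted p = 0.568), which does not show that the values are equal. The difference of Dcpp3 was -0.42 (SE 0.27, edgeR adjusted p = 0.206).

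**Figure D5:**
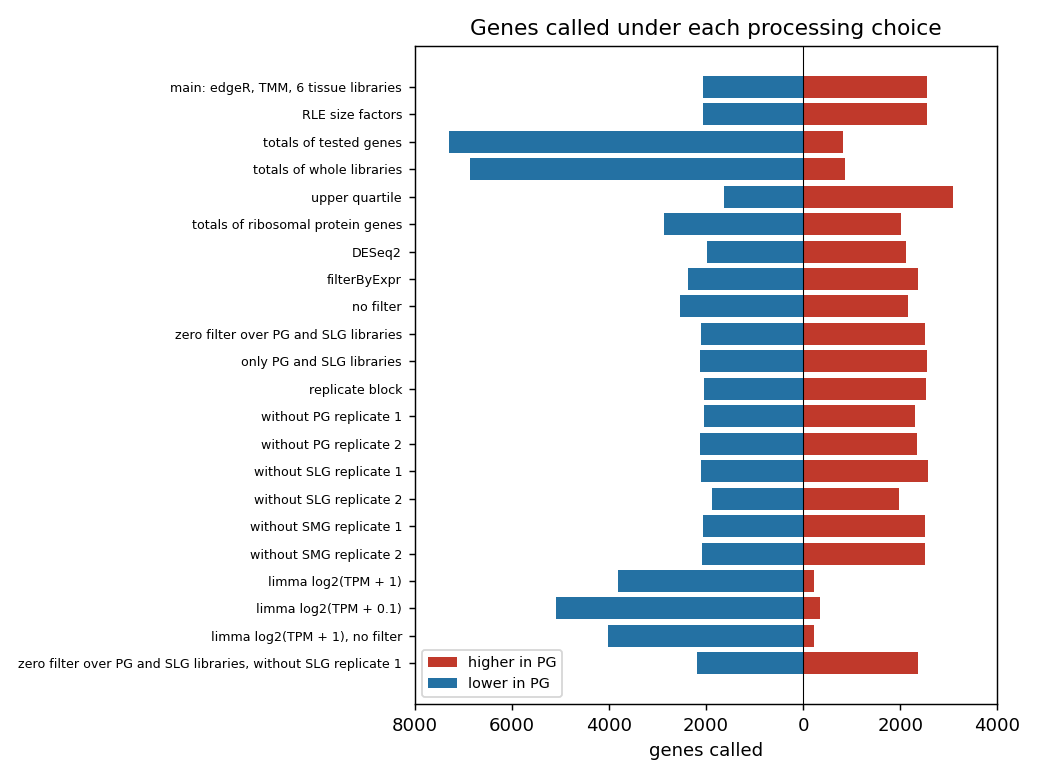
Number of genes called higher in PG (red, to the right) and lower in PG (blue, to the left) under each processing choice. With TMM scaling 2555 were higher and 2053 lower, while scaling by the totals of tested genes gave 829 and 7292.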

How the data were processed

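The authors sequenced gland tissue as pairs of reads on a NovaSeq instrument, and the submitters' processing notes name HISAT2, StringTie, DESeq2 and the build GRCm38. For HISAT2 and StringTie the versions, and whether counting used the strand, were not found in the labels or the methods. The labels name a kit for total RNA and the methods one for mRNA. The deposited counts per gene were used as the authors made them, and the deposited TPM of tissue entered alternatives only. Another 22 columns of FPKM or organoid TPM were not used.

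Counts were fitted with edgeR 4.0.16 in R 4.3.3 (TMM, robust quasi-likelihood test, Benjamini-Hochberg adjustment) over the 6 tissue libraries, after genes with a 0 in any of them were left out, as in the study. A gene was called where the size of its log2 fold change exceeded 1 and its adjusted p was below 0.05. The SE is the fold change divided by the square root of F. For a count of 0 the limit used was 3 counts, and this limit covers only counting error. Alternatives were other scalings, filters, DESeq2 1.42.0, limma 3.58.1 on log2(TPM + 1) or log2(TPM + 0.1) at a mean TPM of at least 1, a replicate block and each library left out. The tests were tested on simulated data. Coordinates are from RefSeq GRCm38.p6, which held 99.79% of the identifiers.

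Named genes were the study's markers, the 12 called genes with the highest and the 12 with the lowest log2 fold change (at least 5 CPM, separate libraries, predicted models left out), leading members of 37 gene lists, members of 6 lists whose role is described, genes at 0 in one gland and genes that differed most between the SLG libraries. Members and lists were chosen with earlier results of these data known. Figures were drawn with Python 3.11.15 and matplotlib 3.10.9.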

Additional observations from a re-analysis of the deposited data

Results flagged for a closer look

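For 3 of the study's gland markers the difference between PG and SLG in tissue was called different from that in organoids. The edgeR test was of the difference of the log2 fold changes, called where its size exceeded 1. Klk1 differed by 2.79, with -1.31 in tissue and -4.10 in organoids (edgeR adjusted p = 9.52e-05). Scaled over tissue and organoid libraries together, it had 1886 and 2213 CPM in PG tissue and 4554 and 5635 CPM in SLG tissue. In organoids it had only 0.767 and 0.580 CPM in PG and 11.9 and 11.3 CPM in SLG. The organoid fold of Klk1 thus rests on PG levels under 1 CPM. Klk1b11 differed by 2.03, with -2.54 in tissue and -4.57 in organoids (edgeR adjusted p = 3.63e-05). Itga8, an integrin subunit, differed by -1.02, with -1.49 in tissue and -0.47 in organoids (edgeR adjusted p = 6.72e-05). Serpine2, with a difference of 0.96 (edgeR adjusted p = 5.25e-05), and Sema3b, with 0.87 (edgeR adjusted p = 0.00441), lay under the size threshold only. Kallikrein copies are near-identical, and the split of reads among them was not tested.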

How the results depend on the processing

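Counts of genes called moved with the scaling and with the test. With the totals of tested genes 829 were higher and 7292 lower in PG, and with whole-library totals 866 and 6858. With limma on log2(TPM + 1) these were 233 and 3809, on log2(TPM + 0.1) 347 and 5092, and without a filter 233 and 4019, settings that change the test, the values and the filter together. Of the called genes, 55.4% were higher in PG with TMM, 65.6% with the upper quartile, 41.3% with ribosomal protein totals, 10.2% with totals of tested genes and 46.1% without a filter. Leaving out 1 library gave 1965 to 2569 higher and 1881 to 2133 lower genes. With a replicate block 2528 were higher and 2049 lower. Deviations of libraries with the same number had correlations of -0.0416 to -0.0149 between glands. With 2 libraries a gland, these cannot show whether libraries with the same number came from the same mouse. The difference between tissue and organoids gave 3569 to 4671 calls over its alternatives. A replicate block was not run there, since the columns of PG organoids carry a number that no label has. With 2 libraries a gland and 1 SLG library that holds parotid transcripts, folds of parotid genes are limited by that library.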
